A study of Mus musculus with 4 samples.

Results

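Open promoters that carried the histone variant H2A.Z on only 1 side of the transcription start site (TSS) were described in mouse liver, with the upstream and the downstream side kept apart. They were chosen by measured values, and those of the WT liver alone. A promoter was open when a WT ATACseq peak overlapped the 250 bp on either side of the TSS of a GENCODE vM21 protein-coding gene on chromosomes 1 to 19 with no coding TSS on the opposite strand within 1 kb. It was one-sided when WT H2A.Z summits, the highest points of peaks, lay within 500 bp of the TSS on exactly 1 side. Of 20807 coding genes on these chromosomes, 18486 had no such neighbour and 3912 of these were open. H2A.Z was upstream only at 1373 (35.1% of the open promoters) and downstream only at 353 (9.02%), which together gave 1726 one-sided promoters at 1726 distinct TSSs. Neighbouring TSSs can share the same peaks, as those of Asdurf, Gm28551 and Asnsd1 do, and each is counted as a member. The other open promoters had summits on both sides (1601) or on neither side (585).

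The study profiled chromatin in the livers of male C57Bl/6 mice of 8 to 12 weeks on a normal diet. WT mice were Uhrf1-Fl/fl, and Uhrf1hepKO mice were Uhrf1-fl/fl;Alb:Cre, so both carried the floxed allele of Uhrf1, which encodes a protein needed to keep DNA methylation through replication. The Albumin promoter drives Cre in hepatocytes, and whether other liver cells kept Uhrf1 was not measured here. Accessibility (ATACseq, in which Tn5 cuts open DNA) and H2A.Z occupancy (ChIPseq after micrococcal nuclease digestion) were each measured in 1 WT and 1 Uhrf1hepKO library, which gave 4 libraries, and the labels do not tell whether both assays of a genotype came from the same liver. With 1 library per condition no spread between mice is known and no test between livers was made. Intervals are 95% intervals, by the Wilson method for shares, Newcombe's for differences of shares and order statistics for medians. They cover counting error only, since all promoters of a group share the same libraries.

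The 4 lists held 10758 (WT) and 10972 (Uhrf1hepKO) ATACseq peaks and 51702 and 47391 H2A.Z peaks. Read depth is not given in the lists, so a missing peak is a peak not called, not a measured absence. The tissue label was checked against TSSs of marker genes. Of 8 hepatocyte markers, only Pck1 (gluconeogenesis) had a WT ATACseq peak and none had a WT H2A.Z summit within 500 bp. Markers of Kupffer cells, endothelium and lymphocytes had neither, and of the stellate and cholangiocyte markers Dcn and Spp1 had H2A.Z. No marker was a one-sided promoter. In whole liver the cell type that gives a peak cannot be told apart.

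H2A.Z replaces the canonical histone H2A in a share of nucleosomes and is placed there by the SRCAP and p400 remodelling complexes. At active promoters it is known to sit in the nucleosomes that flank the nucleosome-depleted region over the TSS. The nucleosome downstream of the start is usually called +1 and the one upstream −1. The mark and DNA methylation are known to occupy different sequences, and most CpG island promoters are free of methylation.

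The 6 sequences below show what the words upstream-only and downstream-only mean in DNA. They are the 300 bp before the TSS, 5′ to 3′ on the strand of the gene, from the RefSeq FASTA of GRCm38. All 6 promoters had the same single side and an ATACseq peak in both livers, with no base of an H2A.Z peak on the other side, and were picked for their high H2A.Z folds. In the upstream-only promoters capitals mark bases under the WT H2A.Z peak, so the peak stops short of the TSS at the right end of the line.
Phf20l1, chr15:66577260-66577559, plus strand: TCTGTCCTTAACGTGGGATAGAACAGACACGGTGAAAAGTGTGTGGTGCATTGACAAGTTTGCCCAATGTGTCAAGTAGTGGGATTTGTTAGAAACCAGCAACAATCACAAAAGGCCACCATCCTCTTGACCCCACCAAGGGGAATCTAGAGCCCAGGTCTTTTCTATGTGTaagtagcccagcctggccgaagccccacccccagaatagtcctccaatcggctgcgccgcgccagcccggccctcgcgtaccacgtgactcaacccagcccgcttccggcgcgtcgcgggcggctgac
Klhl24, chr16:20097242-20097541, plus strand: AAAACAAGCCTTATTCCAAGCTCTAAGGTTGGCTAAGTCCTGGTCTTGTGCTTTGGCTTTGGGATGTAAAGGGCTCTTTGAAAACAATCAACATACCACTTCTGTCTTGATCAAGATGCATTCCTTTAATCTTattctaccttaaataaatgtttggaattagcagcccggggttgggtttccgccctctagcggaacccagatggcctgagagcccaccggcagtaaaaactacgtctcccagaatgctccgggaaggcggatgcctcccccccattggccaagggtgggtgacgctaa
Vapb, chr2:173737211-173737510, plus strand: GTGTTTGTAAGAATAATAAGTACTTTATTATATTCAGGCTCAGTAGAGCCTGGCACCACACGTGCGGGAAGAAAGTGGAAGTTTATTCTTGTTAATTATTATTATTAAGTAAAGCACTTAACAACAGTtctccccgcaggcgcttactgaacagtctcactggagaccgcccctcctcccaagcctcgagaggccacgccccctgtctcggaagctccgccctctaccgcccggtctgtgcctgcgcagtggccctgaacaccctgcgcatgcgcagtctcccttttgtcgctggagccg
The WT H2A.Z summits of Phf20l1, Klhl24 and Vapb lay 220, 258 and 261 bp before the TSS, and the peaks ended 129, 168 and 173 bp before it. Phf20l1 encodes a reader of methylated lysine, Klhl24 an adaptor of a ubiquitin ligase and Vapb a protein of contacts between the endoplasmic reticulum and other membranes. Phf20l1 has 2 CpGs in its 172 capitals and 16 in its 128 lower-case bases. Klhl24 has 0 CpGs in its 133 capitals and 8 in its 167 lower-case bases. Vapb has 2 CpGs in its 128 capitals and 14 in its 172 lower-case bases. GC of the 500 bp after the TSS, the side without H2A.Z, was 77.8%, 69% and 67.8%.

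In the downstream-only promoters the H2A.Z peak lies after the TSS, and capitals mark the bases before it that the WT ATACseq peak covers.
Zfp317, chr9:19621802-19622101, plus strand: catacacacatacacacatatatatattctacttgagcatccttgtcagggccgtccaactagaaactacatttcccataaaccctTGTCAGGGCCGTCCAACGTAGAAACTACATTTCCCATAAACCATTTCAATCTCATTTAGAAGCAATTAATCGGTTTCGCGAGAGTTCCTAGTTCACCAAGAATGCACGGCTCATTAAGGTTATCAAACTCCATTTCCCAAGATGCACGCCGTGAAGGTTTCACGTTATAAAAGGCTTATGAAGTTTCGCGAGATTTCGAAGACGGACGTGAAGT
Asnsd1, chr1:53352753-53353052, minus strand: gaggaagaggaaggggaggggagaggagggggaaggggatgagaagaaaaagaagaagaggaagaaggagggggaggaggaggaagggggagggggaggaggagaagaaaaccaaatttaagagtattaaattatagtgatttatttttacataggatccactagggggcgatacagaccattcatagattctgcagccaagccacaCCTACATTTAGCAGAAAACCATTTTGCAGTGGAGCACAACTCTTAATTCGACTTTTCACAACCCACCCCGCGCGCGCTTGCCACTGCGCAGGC
Bcl2l1, chr2:152831729-152832028, minus strand: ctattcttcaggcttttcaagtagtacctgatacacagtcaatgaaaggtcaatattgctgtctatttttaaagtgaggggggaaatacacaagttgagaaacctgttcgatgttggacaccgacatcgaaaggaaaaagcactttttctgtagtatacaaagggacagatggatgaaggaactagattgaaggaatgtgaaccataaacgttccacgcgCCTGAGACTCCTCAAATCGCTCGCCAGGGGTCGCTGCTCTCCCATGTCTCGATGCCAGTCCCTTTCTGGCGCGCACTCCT
The WT summits of Zfp317, Asnsd1 and Bcl2l1 lay 334, 388 and 148 bp after the TSS, with folds of 10.2, 9.75 and 10.97. Zfp317 encodes a zinc finger protein, Asnsd1 a protein with an asparagine synthetase domain and Bcl2l1 the antiapoptotic protein Bcl-xL. The ATACseq peaks began 214, 93 and 80 bp before the TSS. GC of these 300 bp was 42%, 49.3% and 46%, against 57.3% in Phf20l1, 49% in Klhl24 and 53% in Vapb. These examples do not stand for their groups, whose 500 bp upstream had median GC of 54.2% (upstream-only) and 53.6% (downstream-only).

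The occupied sides were not mirror images of each other in the WT liver. These are values the choice was made on and are given as a description. The highest upstream summit of an upstream-only promoter lay at a median of −282 bp (interval −292 to −275), with a fold over local background of 7.56 and a peak width of 306 bp. The downstream summit of a downstream-only promoter lay at +158 bp (148 to 173), with a fold of 5.61 and a width of 146 bp. Promoters with both sides differed in the same direction. Their upstream summits had −255 bp, a fold of 8.04 and 325 bp, and their downstream summits +191 bp, 5.85 and 156 bp. Upstream summits were spread over the window, with 38 of 1373 (2.77%) within 100 bp of the TSS, whereas 71 of 353 downstream summits (20.1%) were that close. A single summit was present at 94.3% of the upstream-only and 85.6% of the downstream-only promoters.

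**Figure D1:**
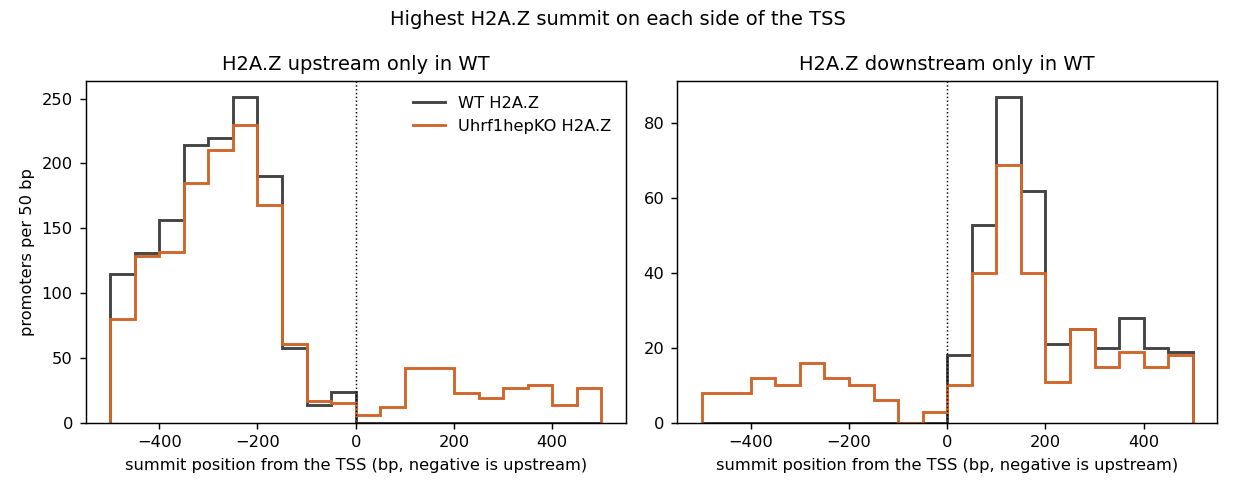
Number of promoters per 50 bp by the position of the highest H2A.Z summit on each side of the TSS (x axis, bp, negative is upstream), for upstream-only (left) and downstream-only promoters (right), in the WT (dark line) and Uhrf1hepKO (orange line) H2A.Z lists. The WT line is empty on the other side because the choice removed such summits, and the upstream summits centre on −282 bp while the downstream summits centre on +158 bp.

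A summit on 1 side did not always mean that the peak kept to it. Bases of a WT H2A.Z peak reached the side without a summit at 258 upstream-only promoters (18.8%, 16.8 to 20.9) and at 169 downstream-only promoters (47.9%, 42.7 to 53.1). The highest peak itself crossed the TSS at 66 of the former (4.81%) and 58 of the latter (16.4%). The side without a summit held 1 in the next 100 bp beyond the window at 181 upstream-only (13.2%) and 79 downstream-only promoters (22.4%). No H2A.Z base in either liver on the empty side was found at 941 upstream-only (68.5%) and 150 downstream-only promoters (42.5%), a stricter set whose values are given where they bear on a result. With summits sought within 300 bp the groups held 1072 and 691 promoters, and with peak bases in place of summits 1295 and 203, so the downstream-only group depends more on the definition than the upstream-only group.

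The ATACseq peak also gave another view of the sides. The highest WT summit lay beyond the centre of the WT ATACseq peak, on the opposite side from its place at the TSS, at 65 upstream-only promoters (4.73%) and 61 downstream-only promoters (17.3%, 13.7 to 21.6). At the other members the summit was a median of 264 bp (256 to 271) from that centre on the upstream-only side and 239 bp (218 to 255) on the downstream-only side. Spice1, a centriole gene, shows the first situation, since its downstream summit at +91 bp lay before an ATACseq peak centred at +421 bp. Bbs2, a ciliary gene of the BBSome, had its summit at +200 bp and the ATACseq centre at +398 bp.

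The Uhrf1hepKO H2A.Z list, which the choice did not use, held summits mostly on the side where WT had them. Choosing on WT lets the occupied side only lose and the empty side only gain, so these shares are read against those of all open promoters. An upstream summit was found at 1227 of 1373 upstream-only promoters (89.4%, 87.6 to 90.9), where all open promoters had 74.4%. A downstream summit was found at 262 of 353 downstream-only promoters (74.2%, 69.4 to 78.5), where all open promoters had 45.2%. Promoters with both sides in WT had 92.6% upstream and 75.95% downstream, so the downstream side of the downstream-only group did not differ detectably from theirs (difference −1.73 points, −6.95 to 3.07). The upstream side of the upstream-only group was below theirs (difference −3.20 points, −5.31 to −1.14).

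The side empty in WT held a summit in the Uhrf1hepKO list at a minority of members. A summit called in the Uhrf1hepKO list alone is termed gained, which is a difference between 2 libraries and no tested change. A downstream summit was present there at 241 upstream-only promoters (17.6%, 15.6 to 19.7), which is 9.01 points (5.82 to 11.9) above the 8.55% of promoters with neither side in WT. An upstream summit was present at 85 downstream-only promoters (24.1%, 19.9 to 28.8), and here the difference from the 19.8% of the neither group, 4.25 points (−1.14 to 9.86), was within counting error. Downstream summits that appeared at upstream-only promoters had a median fold of 4.88 (4.88 to 5.11), below the 6.28 (6.28 to 6.51) of promoters with both sides in WT, and a width of 123 bp against 190 bp. They lay at +244 bp (204 to 290), farther in than the +182 bp of the both group. Downstream summits gained in the neither group, likewise without one in WT, had a fold of 4.88 (4.65 to 5.35). Their width was 126.5 bp (110 to 146) and they lay at +181 bp (152 to 357). The choice on WT bears on these differences, which are not particular to upstream-only promoters.

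As whole classes, 1003 upstream-only promoters (73.1%) were upstream-only again by the Uhrf1hepKO H2A.Z list, 224 (16.3%) had both sides, 129 (9.40%) had neither and 17 (1.24%) had switched to downstream-only. Of the downstream-only promoters 207 (58.6%) were downstream-only again, 61 (17.3%) had neither, 55 (15.6%) both and 30 (8.50%) had switched. Over all open promoters 37.9% were upstream-only and 8.72% downstream-only by that list. Members without any summit in the Uhrf1hepKO liver had low folds in WT, a median of 5.12 (4.88 to 5.36) against 7.56 (7.31 to 7.80) for upstream-only promoters that stayed so and 4.63 against 6.09 for downstream-only promoters. Those that gained the other side and kept their own had a WT fold of 8.53 (8.04 to 9.02) at upstream-only promoters. At downstream-only promoters it was 6.09 (5.36 to 6.83), no higher than at those that stayed so. WT folds come from the list the choice used, so these contrasts are descriptions.

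**Figure D2:**
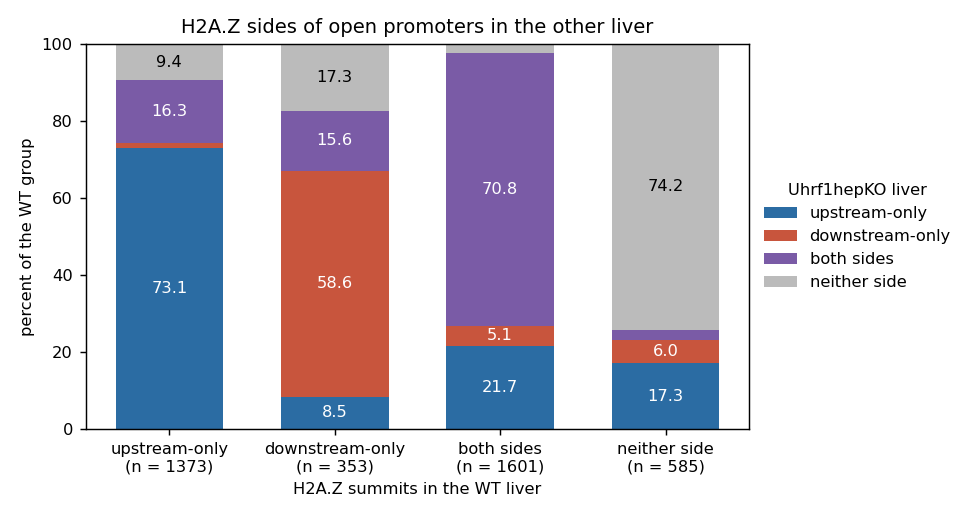
Percent of open promoters (y axis) in each H2A.Z class of the Uhrf1hepKO liver (colours), for the 4 classes of the WT liver (bars, n under each). Upstream-only promoters were upstream-only again at 73.1% and downstream-only promoters at 58.6%.

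Applying the whole rule, ATACseq peak included, to the Uhrf1hepKO lists gave 1345 upstream-only and 298 downstream-only promoters of 3555 open ones. The upstream-only sets shared 754 promoters, 54.9% of the WT set and 56.1% of the Uhrf1hepKO set. The downstream-only sets shared 147, 41.6% and 49.3%. By the Uhrf1hepKO lists 12 WT upstream-only promoters (0.874%) were called downstream-only, and 22 WT downstream-only promoters (6.23%) upstream-only. Over all promoters open in Uhrf1hepKO 8.38% were downstream-only and 37.8% upstream-only.

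Open chromatin was called as often at both kinds of member. A Uhrf1hepKO ATACseq peak was found at 1038 upstream-only (75.6%, 73.3 to 77.8) and 263 downstream-only promoters (74.5%, 69.7 to 78.8), and 75.2% of all open promoters had 1. The difference between the sides was 1.10 points (−3.77 to 6.37). Median folds were 4.58 and 4.70 in the Uhrf1hepKO list and 4.70 and 4.78 in the WT list, which are not scaled to each other. The neither group had a Uhrf1hepKO peak at 69.1%, which was 6.54 points (2.24 to 10.98) below the upstream-only group.

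The DNA of the 2 sides differed most clearly on the downstream side. GC of the 500 bp downstream had a median of 68.8% (68.2 to 69.2) at upstream-only promoters, where this side had no H2A.Z summit, and 62.8% (61.6 to 63.6) at downstream-only promoters, where it had. Promoters with both sides were at 61.6% (61.2 to 62) and those with neither at 68.8% (68 to 69.6). CpGs in the same 500 bp numbered a median of 51, 36, 35 and 48 in the order upstream-only, downstream-only, both and neither. In the stricter set of 941 upstream-only promoters downstream GC was 70.2% (69.8 to 70.8). CpGs within 500 bp on either side numbered a median of 77 at upstream-only and 59 at downstream-only promoters, and the gap narrowed to 67 and 60 with summits sought within 300 bp and widened to 81 and 52.5 within 1000 bp. The downstream side was thus richer in GC in the groups that lacked H2A.Z there, by more than the intervals.

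Upstream GC was 54.2% (54 to 54.8) at upstream-only, 53.6% (53 to 54.6) at downstream-only, 51.2% (50.8 to 51.6) at both and 58.4% (57.8 to 59.2) at neither. The empty upstream side of downstream-only promoters was richer than that of the both group, but no richer than the occupied upstream side of upstream-only promoters. In the stricter set of 150 downstream-only promoters it was 52.8% (51.4 to 54.2). Within a promoter, the downstream side exceeded the upstream side by a median of 13.8 points (13.4 to 14.2) at upstream-only and 8 points (6.4 to 9.2) at downstream-only promoters.

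**Figure D3:**
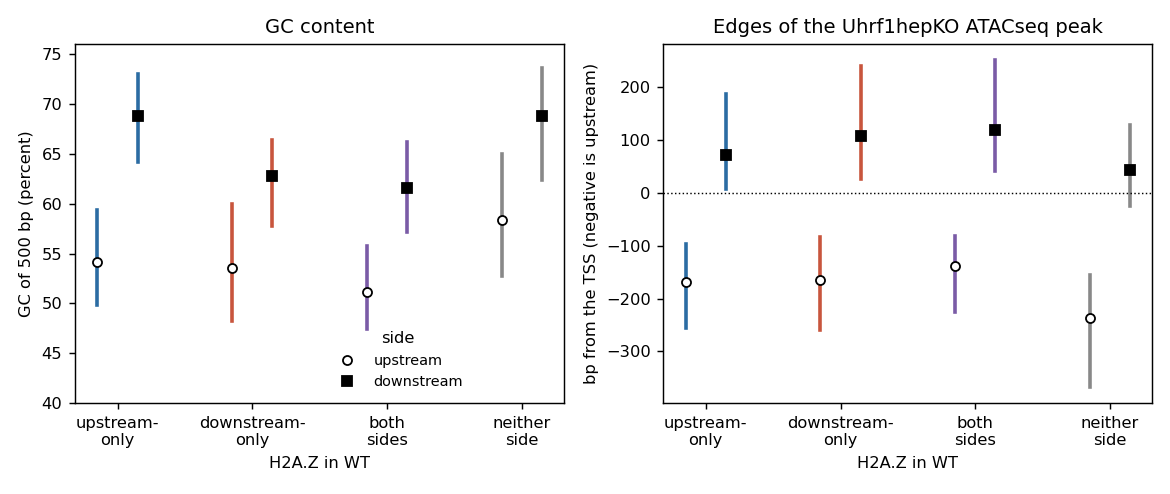
Left, GC percent of the 500 bp on each side of the TSS. Right, upstream and downstream edges of the Uhrf1hepKO ATACseq peak in bp from the TSS. Points are medians over promoters of each WT H2A.Z class (x axis), open circles for the upstream and filled squares for the downstream side, and bars span the quartiles. Downstream GC was 68.8% at upstream-only and 62.8% at downstream-only promoters, and the downstream edge lay at 72.5 and 108 bp.

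When all open promoters were sorted by the GC of 1 side, the share with a WT summit there fell from 50 to 55% GC upward on both sides. Of promoters with 50 to 55% GC on a side, WT had a summit there at 80.6% (upstream) and 80.1% (downstream). At 60 to 65% GC the shares were 68.3% and 62.2%, at 65 to 70% they were 54.7% and 43.1%, and at 70 to 75% they were 32.3% and 24.1%. Above 75% GC a downstream summit was present at 5.30% and an upstream summit at 0 of 16 promoters, which allows up to 19.4% by the Wilson method. At 65 to 70% GC the intervals of the sides, 48.3 to 61.0 and 40.02 to 46.3, did not overlap, with the upstream share the higher, whereas at 50 to 55, 55 to 60, 60 to 65 and 70 to 75% they overlapped. High GC was common downstream and rare upstream, with 948 downstream and 232 upstream sides at 65 to 70% and 715 and 93 at 70 to 75%.

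Shares from the Uhrf1hepKO list, which the choice did not use, also fell over these classes of promoters open in WT. Downstream summits fell from 74.5% at 50 to 55% GC to 57.3%, 37.9%, 19.6% and 3.97% in the classes of 60 to 65, 65 to 70, 70 to 75 and above 75% GC, and upstream summits went from 79.4% to 64.8%, 55.6% and 37.6% at 60 to 65, 65 to 70 and 70 to 75%. The upstream share was above the downstream share beyond the intervals at 65 to 70% (49.2 to 61.9 against 34.8 to 41.0) and at 70 to 75% (28.5 to 47.8 against 16.8 to 22.7). Among upstream-only promoters the share that had a downstream summit in the Uhrf1hepKO liver fell with downstream GC from 55 to 60% upward. It was 31.9% (23.2 to 42.0) of 91 promoters at 55 to 60%, 27.1% of 269, 21.9% of 397 and 10.3% (7.68 to 13.8) of 387 in the next 3 classes, and 1.08% (2 of 185) above 75%. Below that range few promoters were present, with 1 of 4 at 45% or less, 0 of 8 at 45 to 50%, which allows up to 32.4% by the Wilson method, and 28.1% of 32 at 50 to 55%. Among downstream-only promoters an upstream summit in the Uhrf1hepKO liver followed no such order with upstream GC, with 14.6% of 48 at 45% or less, 31.8% of 63 at 55 to 60% and 20% of 25 at 65 to 70%. The part of GC content in these calls was not tested.

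**Figure D4:**
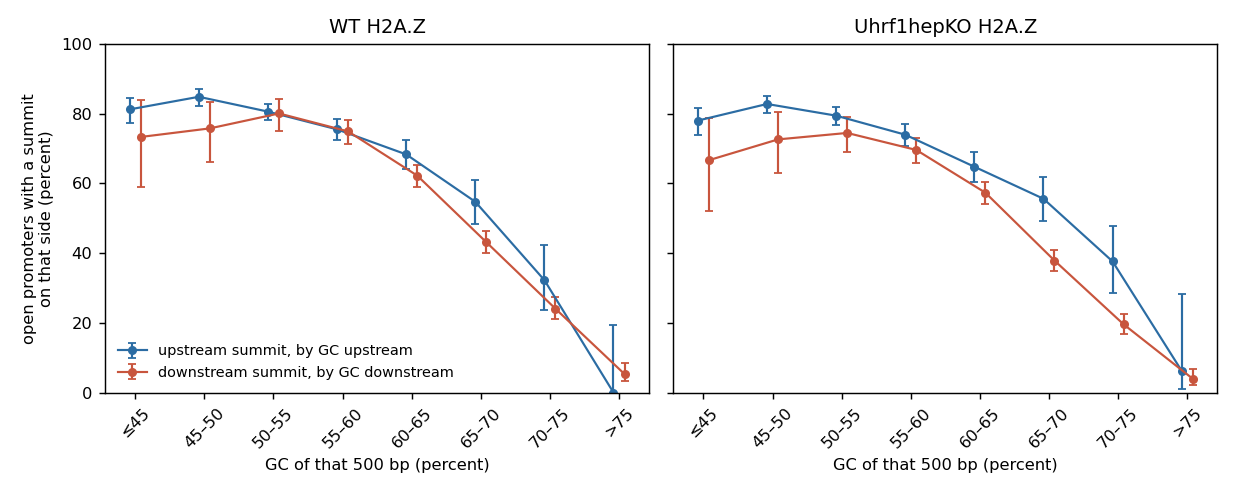
Percent of the 3912 open promoters with an H2A.Z summit within 500 bp on 1 side (y axis) by the GC percent of that same 500 bp (x axis), for upstream (blue) and downstream (red) sides in the WT (left) and Uhrf1hepKO (right) lists. Bars are Wilson 95% intervals. At 50 to 55% GC the WT shares were 80.6% upstream and 80.1% downstream, and at 70 to 75% they were 32.3% and 24.1%.

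The downstream edge of the open region was compared in the Uhrf1hepKO ATACseq list. It lay at a median of +72.5 bp (67 to 84), against +108 bp (85 to 140) at downstream-only promoters, +120 bp (111 to 133) with both sides and +43.5 bp (30 to 61) with neither. In the stricter set the intervals of the one-sided groups overlapped, with +55 bp (46 to 67) at upstream-only and +86 bp (47 to 136) at downstream-only promoters. Upstream edges lay at −168 bp and −164 bp in the one-sided groups. Peak centres were at −40.2 bp (−50.5 to −34.5) and −31.5 bp (−53 to −18.5), which overlap. The order of the centres depended on the definition, with −5.25 bp (−13.5 to 3) and −38.8 bp (−51 to −26) for summits within 300 bp, and −71.5 bp (−76 to −62) and −6.75 bp (−26 to 24) within 1000 bp. With peak overlap in place of a summit they were −62 bp (−71 to −53) and −27 bp (−50.5 to −3.5). In the class of 65 to 70% downstream GC the downstream edge was at +98 bp (80 to 122) for upstream-only, +148 bp (89 to 203) for downstream-only and +149 bp (121 to 205) for both sides. At 55 to 60% it was +65 bp (40 to 102), +71.5 bp (37 to 200) and +147 bp (115 to 179). At like GC the upstream-only edge lay nearer the TSS than that of the both group beyond the intervals at 55 to 60% and at 70 to 75% (+48 bp, 31 to 69, against +126 bp, 107 to 192). The intervals overlapped narrowly at 65 to 70% and also at 60 to 65% (+98 bp, 78 to 128, against +124 bp, 97 to 149).

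The highest WT H2A.Z peak on the occupied side overlapped the highest WT ATACseq peak at 34.3% (31.8 to 36.9) of upstream-only and 46.7% (41.6 to 52.0) of downstream-only promoters. At most upstream-only promoters that H2A.Z peak thus did not overlap that ATACseq peak. For downstream-only promoters the interval does not tell whether this held at most of them. The choice used both lists, so this is a description, and overlap with other ATACseq peaks was not counted. The WT ATACseq peak covered the TSS itself at 74.6% and 72.5%.

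Annotation around the members differed in several features. The body of another coding gene lay in the 500 bp upstream of 46 downstream-only promoters (13.0%, 9.91 to 16.9), against 89 upstream-only promoters (6.48%, 5.30 to 7.91), a difference of 6.55 points (interval of upstream-only minus downstream-only −10.6 to −3.12). It was 8.06% with both sides and 8.89% with neither. A gene that ran across the TSS was present at 37 downstream-only (10.5%) and 74 upstream-only promoters (5.39%). A noncoding TSS on the opposite strand within 1 kb was present at 15.0% and 16.5%, and another annotated start of the same gene 51 to 500 bp away at 59.8% of both. First exons had a median length of 234 bp (225 to 242) at upstream-only, 206 bp (188 to 224) at downstream-only and 190 bp (183 to 196) at both sides. Genes had a median length of 28717 bp (26825 to 30356) at upstream-only and 21233 bp (18317 to 24093) at downstream-only promoters.

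The members with the highest WT H2A.Z fold show the geometry promoter by promoter. Sem1, a small subunit of the proteasome lid, had the highest upstream fold, 16.3 at −334 bp, and 16.5 at −343 bp in the Uhrf1hepKO list. Its ATACseq folds were 3.91 and 3.74, and a weak downstream summit (fold 4.65 at +398 bp) was called only in the Uhrf1hepKO liver. Stx6, a SNARE of the trans-Golgi network, had folds of 15.1 at −314 bp and 12.8 at −305 bp, no downstream summit in either liver, and ATACseq folds of 7.97 and 8.24. Its downstream GC was 72%.

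Hist1h3a, a replication-dependent histone gene whose copies are nearly identical and whose reads may be shared, had upstream folds of 14.9 and 13.5 and an ATACseq peak in WT alone (fold 3.63). Phf20l1 had 14.9 at −220 bp and 14.9 at −230 bp and no downstream summit in either liver. Eif3e, a subunit of translation initiation factor eIF3, had 14.6 at −268 bp and 13.5 at −274 bp and gained a downstream summit of fold 3.49. In these 5 promoters the upstream summits of the livers lay within 10 bp of each other, and the 2 gained downstream summits had folds below 5.

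Of the 6 downstream-only promoters with the highest folds, 5 had a WT ATACseq peak centred downstream of the TSS. The median centre of the whole group was −10.5 bp (−26.5 to 4.5). At these 5 the summit lay before the ATACseq centre, as at 17.3% of downstream-only promoters, so they do not stand for the group. 4933424G06Rik, a gene of no assigned function here, had 14.9 at +137 bp in WT and 14.2 at +116 bp in Uhrf1hepKO, with GC of 69.4% upstream and 37.4% downstream. Clasp1, a microtubule plus-end protein, had 14.9 at +43 bp and 14.4 at +54 bp and gained an upstream summit of fold 9.30 at −307 bp. Cwf19l2, a homologue of a yeast splicing factor, had 12.4 at +262 bp and 12.1 at +272 bp, and its WT ATACseq peak was centred at +391 bp with none called in Uhrf1hepKO.

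Dnajc15, a mitochondrial co-chaperone, had 12.2 at +61 bp and 13.0 at +50 bp, with the ATACseq peak centred at +204 bp in WT. Bbs2 had 11.7 and 9.99. Spice1 had a WT fold of 11.2 at +91 bp, in a peak 848 bp wide. In Uhrf1hepKO the only summit was upstream, with a fold of 13.5 at −273 bp, in a peak 853 bp wide. It thus switched class by the place of its summit, with wide peaks in both livers.

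**Figure D5:**
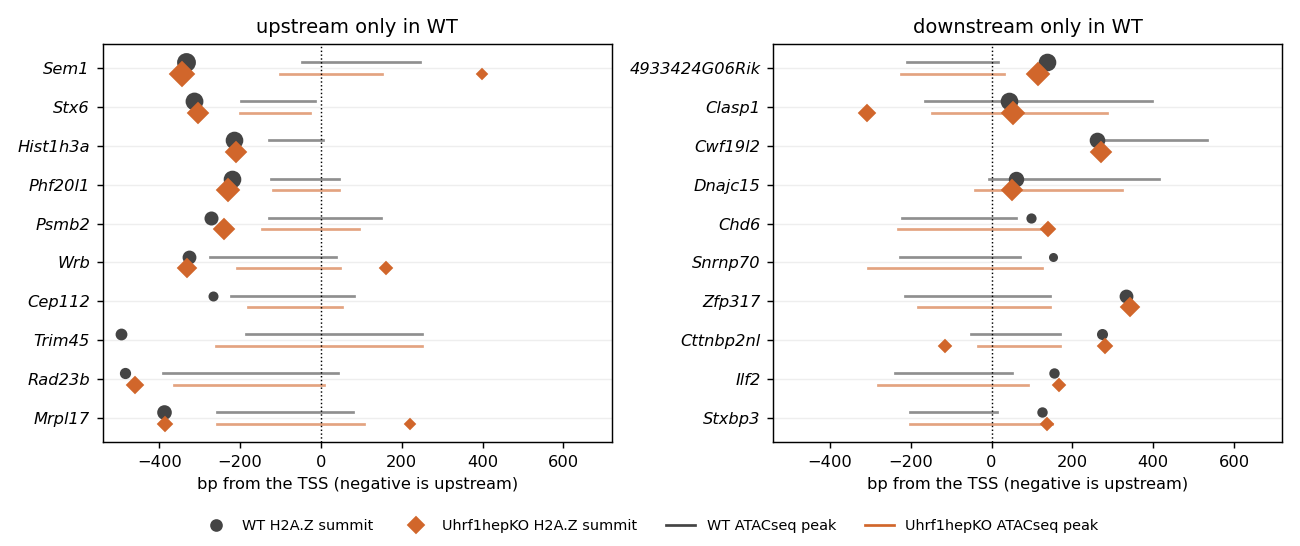
H2A.Z summits (circles WT, diamonds Uhrf1hepKO, larger for higher fold) and ATACseq peaks (horizontal lines from edge to edge) around the TSS (x axis, bp, negative is upstream) of the 4 members with the highest WT H2A.Z fold and the 6 with the highest WT ATACseq fold on each side. At Sem1 the upstream summits lay at −334 and −343 bp, and at Clasp1 a downstream summit at +43 bp in WT was joined by an upstream summit at −307 bp in Uhrf1hepKO.

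The members with the highest WT ATACseq folds follow. Psmb2, a core proteasome subunit, had ATACseq folds of 10.03 and 8.69 and upstream H2A.Z of 10.5 at −272 bp and 12.1 at −240 bp. Wrb, a receptor for tail-anchored proteins at the endoplasmic reticulum, had ATACseq folds of 9.81 and 7.09 and upstream H2A.Z of 10.2 and 10.9, with a gained downstream summit of 5.11. Cep112, a centrosomal protein gene, and Trim45, a ubiquitin ligase gene, had ATACseq folds of 9.80 and 9.57 in WT and of 8.63 and 7.71 in Uhrf1hepKO, and H2A.Z summits of 5.61 and 7.80 that were not called in Uhrf1hepKO.

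Rad23b, a nucleotide excision repair factor, was upstream-only in both livers (7.07 at −485 bp and 9.30 at −459 bp) with ATACseq folds of 9.33 and 7.36. Mrpl17, a mitochondrial ribosomal protein gene, had upstream folds of 11.2 and 8.37 and gained a downstream summit of 4.65. Its ATACseq folds were 9.32 and 6.26.

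Among downstream-only promoters Chd6, a chromodomain remodeller, had the highest ATACseq folds, 9.66 and 11.2, and H2A.Z of 5.85 at +98 bp and 7.20 at +141 bp. Snrnp70, the 70K protein of the U1 snRNP, had 9.07 and 7.98 and a summit of 4.39 at +153 bp that was not called in Uhrf1hepKO. Zfp317 had ATACseq folds of 8.50 and 5.75 and H2A.Z of 10.2 and 11.6. Cttnbp2nl, a relative of a cortactin-binding protein, had ATACseq folds of 8.37 and 7.48 and H2A.Z of 6.83 and 7.20, and gained an upstream summit of 6.74.

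Ilf2, a double-stranded RNA binding protein gene, and Stxbp3, a regulator of membrane fusion, were downstream-only in both livers. Ilf2 had H2A.Z folds of 6.09 and 5.35 and ATACseq folds of 8.25 and 8.75. Stxbp3 had H2A.Z folds of 6.09 and 6.74 and ATACseq folds of 7.84 and 5.79.

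At upstream-only promoters the highest Uhrf1hepKO downstream folds were 9.99 for Tigd2, 9.53 for Gnpda1, 9.06 for Lyplal1 and 9.06 for Senp1, and at each of these 4 the WT list had a downstream summit just outside the window, at +513, +501, +515 and +589 bp. The Uhrf1hepKO summits of Tigd2 and Gnpda1 lay close by, at +500 and +484 bp, whereas those of Lyplal1 and Senp1 lay at +152 and +243 bp. Tigd2 derives from a transposase, Gnpda1 deaminates glucosamine 6-phosphate, Lyplal1 is related to lysophospholipases and Senp1 removes SUMO. At downstream-only promoters the highest upstream folds were 13.5 for Spice1, 12.3 for Tmem87b, a transmembrane protein gene, 11.4 for Tfb1m, a mitochondrial rRNA methyltransferase, and 10.9 for Chd8, another chromodomain remodeller. Tmem87b, Tfb1m and Chd8 had WT summits 508, 615 and 524 bp upstream, also outside the window, and their Uhrf1hepKO summits lay at −484, −423 and −359 bp.

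At the border of the rule, Oaz1, an inhibitor of polyamine synthesis, and Hdgf, a growth factor gene, were inside by WT summits at −499 bp, and Oaz1 had none in Uhrf1hepKO. Brf2, an RNA polymerase III factor, was called upstream-only with a downstream WT summit at 501 bp, and the Uhrf1hepKO list had a downstream summit at +129 bp. Crocc and Arrdc4 were downstream-only with an upstream summit at 501 bp. Just outside, Map3k9 and Stard4 had no WT summit inside the window and 1 at 502 bp. In Uhrf1hepKO Stard4 had an upstream summit of fold 7.67 at −470 bp.

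The gene lists below are read against all open promoters, of which 35.1% were upstream-only, 9.02% downstream-only, 40.9% had both sides and 14.95% neither. Their counts are small and nothing is called particular to a list. Of 92 hepatocyte function genes without an opposite coding TSS 17 were open, where 3912 of all 18486 such genes were, and these 17 were 7 upstream-only (41.2%), none downstream-only, 2 both and 8 neither. Crp, an acute phase protein gene with few CpGs (6 within 500 bp), had upstream folds of 8.53 at −236 bp and 10.7 at −237 bp and an ATACseq peak in WT alone. Ugt1a1, which conjugates bilirubin, had 3.67 at −288 bp and 3.62 at −302 bp. Dhodh, an enzyme of pyrimidine synthesis, had 10.97 and 11.2 and gained a downstream summit of 6.04.

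Ugdh, which makes UDP-glucuronate, had upstream folds of 6.09 and 6.74. Mthfd1, of one-carbon metabolism, had a WT fold of 7.31 at −344 bp and no summit in Uhrf1hepKO, with ATACseq peaks in both livers (5.76 and 3.89).

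Of 7 open promoters of hepatocyte transcription factor genes, 5 were upstream-only (71.4%, where all open promoters had 35.1%). Foxo1, the forkhead factor held back by insulin signalling, had 7.80 at −195 bp and 12.1 at −207 bp. Srebf2, the regulator of cholesterol genes, had 7.07 and 6.28, Stat3, of interleukin 6 signalling, 5.61 and 6.04, and Onecut2 5.61 and 7.44. Cebpg had 3.66 in WT and none in Uhrf1hepKO. Downstream GC was 66.4% at Stat3 and between 73.8% and 78.2% at the other 4. Cytochrome P450 genes had 6 open promoters, with Cyp20a1 upstream-only (9.02 and 9.76), Cyp2r1, the vitamin D 25-hydroxylase, downstream-only (5.61 and 3.95) and 1 both. All 5 open nuclear receptor promoters had neither side, as had 14.95% of all open promoters.

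Lists of genes of basic cell functions had many members. Upstream-only promoters were 12 of 22 open splicing factor genes, 13 of 28 of oxidative phosphorylation, 8 of 18 of the proteasome, 8 of 19 tRNA synthetase genes, 12 of 29 of translation factors and 16 of 39 cytosolic ribosomal protein genes, where all open promoters had 35.1%. Downstream-only promoters were 2, 2, 0, 1, 1 and 1 of them. Cycs, cytochrome c, had upstream folds of 5.61 and 5.35, and Uqcrfs1, of respiratory complex III, 9.99 and 10.2. Rpl26 and Rps6 had 6.83 and 6.58 in WT and 6.51 and 5.11 in Uhrf1hepKO.

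Zinc finger Zfp genes had 29 upstream-only (20.1%), 13 downstream-only (9.03%), 97 both and 5 neither of 144 open promoters, beside 35.1%, 9.02%, 40.9% and 14.95% over all open promoters. Their median downstream GC was 59.2%, against 65.2% over all open promoters. Zfp865 was upstream-only in both livers (6.83 and 6.51) with a downstream GC of 69.4%, and Zfp87 (9.51 and 9.99) gained a downstream summit of 4.65 with a downstream GC of 59.2%. Mitochondrial ribosomal protein genes had 3 upstream-only, 4 downstream-only and 11 both of 18, with a downstream GC of 59.6%. Mrpl28 was downstream-only in both livers, with 8.04 and 6.97 at +139 bp.

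Replication genes had 6 upstream-only and 6 downstream-only promoters of 22, and G1 cell cycle genes 4 and 4 of 12, where 9.02% of all open promoters were downstream-only. Mcm5, of the replicative helicase, had downstream folds of 6.83 at +442 bp and 7.20 at +415 bp, and Ticrr, needed to start replication, 6.58 and 6.28 and a gained upstream summit of 6.04. Mcm3 was upstream-only (10.97 and 10.5) and gained a downstream summit of 4.88. Cdk4, the G1 kinase, had 4.39 at +423 bp and 4.42 at +281 bp, and Rbl1, p107, 5.36 and 5.58 with a gained upstream summit of 5.11. E2f3 and E2f5 were upstream-only in both livers, with WT folds of 9.99 and 6.34.

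Mitosis genes were upstream-only at 8 (27.6%) and downstream-only at 3 (10.3%) of 29, beside 35.1% and 9.02% over all. Plk4, the kinase of centriole duplication, switched from a downstream summit of 4.63 to an upstream summit of 9.76, and Bub3, a spindle checkpoint protein gene, was downstream-only in both livers (6.58 and 6.97). Clock genes were upstream-only at 6 of 12, beside 35.1% over all, and downstream-only at none, among them Cry1 (7.07 and 6.51) and Arntl, which encodes BMAL1, with 7.07 at −494 bp in WT and no summit in Uhrf1hepKO. Livers were collected in the morning. Genes of the unfolded protein response had 7 upstream-only (36.8%), 1 downstream-only (5.26%) and 9 neither of 19, beside 35.1%, 9.02% and 14.95% over all, and antioxidant genes of the NRF2 pathway 5 upstream-only and 5 both of 11, with Pgd at 12.9 and 11.2 and Cat at 3.90 and 4.65.

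H2A.Z itself is encoded by 2 genes, and both promoters were upstream-only in both livers. H2afz had folds of 5.61 at −434 bp and 6.74 at −375 bp with 122 CpGs within 500 bp of the TSS. H2afv had 11.2 at −461 bp and 8.60 at −483 bp. Of 12 open promoters of H2A.Z genes and their exchange machinery 5 were upstream-only (41.7%, beside 35.1% over all), 7 both, and none downstream-only or neither. Ing3, of the p400 complex, was upstream-only in both livers (9.99 and 9.76), Ep400, its ATPase, had 6.34 in WT and none in Uhrf1hepKO, and Ino80, of the remodeller that bears its name, had 8.29 and 7.20 upstream and gained a downstream summit of 5.11. Srcap, Ruvbl1, Dmap1, Actr6 and Anp32e had both sides in both livers, and Yeats4 and Epc1 had both in WT and the upstream side alone in Uhrf1hepKO. Uhrf1 was not among the open promoters of the rule.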

How the data were processed

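H2A.Z and ATACseq peak lists of WT and Uhrf1hepKO liver were used, 1 library per genotype and assay. The authors aligned reads with BWA-MEM to GRCm38.p4, used PICARD for cleaning, sorting and removal of ChIPseq duplicates, and called peaks per library with MACS2 at a p-value of 0.05, in broad mode for ATACseq. The methods call the ATACseq reads single-end and the calling option paired-end. The MACS2 version, a control library, the H2A.Z mode and a shift of ATACseq reads are not given in the sources used here. Per the labels, processing also used FastQC 0.11.5 and Trimmomatic. Each deposited peak carries a fold, the ratio of pileup to local background, averaged over the region for ATACseq and taken at the summit for H2A.Z. The authors' caller also deposited −log10 p- and q-values and a display score made from the q-value. Nothing is scaled between libraries, so folds were set side by side and not tested.

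Summits were placed by the deposited distance from the peak start. TSSs were the 5′ ends of genes in GENCODE vM21, and sequence came from the RefSeq FASTA of GRCm38.p6, with the same chromosomes. All 4788 promoter windows shared with the RefSeq promoter table were identical. GC and CpGs were counted over 500 bp per side. The classification and the intervals were tested on simulated data. Sequence was read with pysam 0.24.0, tables with pandas 2.3.3 and numpy 2.4.6 under Python 3.11.15, intervals used scipy 1.17.1 and plots matplotlib 3.10.9.

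Named promoters were, per side, the 6 with the highest WT H2A.Z and the 6 with the highest WT ATACseq fold, all members in 4 lists of liver genes, the 4 strongest Uhrf1hepKO signals on the empty side, the 2 of highest WT ATACseq fold in other lists with at least 3 members (not all are printed), those nearest the border, and the H2A.Z genes with their machinery. Some of these are not reported here. Sequences were chosen again after a first set, taken by fold alone, held peaks that crossed the TSS. They now come from promoters without H2A.Z bases on the empty side, from windows without annotated exons, ending at the TSS. The promoters, the 29 gene lists and the 11 motifs were chosen with earlier results of these data known. Of 12 results, 10 alternatives were computed, and an eleventh, sides measured from the ATACseq centre, was added after seeing the data.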

Additional observations from a re-analysis of the deposited data

How the results depend on the processing

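Of 132 recomputed values, 93 stayed within the interval of the value reported, or within 1.5 times a count, and the upstream-only count did so under all 11 alternatives (1072 to 1468). The downstream-only count moved from 353 to 202 when only peaks that reached their list's median fold were kept, to 203 with peak overlap in place of a summit, and to 691 with summits within 300 bp. For upstream-only promoters the Uhrf1hepKO upstream share was 82.2% with summits within 300 bp, 94.4% within 1000 bp, 93.98% with overlap and 90.9% with the rule applied to the Uhrf1hepKO lists and WT as readout. Their downstream share was 10.8% with the median fold, 15.5% within 300 bp, 14.98% with overlap, 25.7% with the livers exchanged and 15.4% from the ATACseq centre. Their ATACseq share was 72.5% with the median fold, 71.6% with a −log10 q of at least 2, 72.8% within 300 bp and 83.5% exchanged. For downstream-only promoters the downstream share was 84.4% within 1000 bp, 80.8% with overlap and 83.9% exchanged, the upstream share 18.96% within 300 bp, 17.7% with overlap and 29.9% exchanged, and the ATACseq share 68.3% with the median fold, 79.9% within 300 bp, 69.7% within 1000 bp and 82.6% exchanged. Measured from the WT ATACseq centre, the Uhrf1hepKO centre lay at 1.5 and 0.25 bp, near 0 by construction. The causes of the other moves were not tested. No paired analysis was possible because each group has 1 library.

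The limits are those of peak lists. A side counts as empty when no summit was called within 500 bp of the TSS, even where bases of a peak reach it. Read depth is not given, and 1 library per genotype and assay gives no spread between mice. TSSs are annotated, not measured, and the promoters of a group share their libraries.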

Other observations

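Short motifs in the 300 bp from 250 bp before to 50 bp after the TSS, searched on both strands, were compared as descriptions. The GC box GGGCGG, bound by SP factors, was present in 71.6% (69.1 to 73.9) of upstream-only and 64.0% (58.9 to 68.8) of downstream-only promoters, 61.2% of those with both sides and 74.2% of those with neither, against 41.2% of all 18486 single promoters. Over all open promoters the GC box was present in 67.05%. CCAAT, the NF-Y motif, was present in 45.7% (43.1 to 48.3) and 53.0% (47.8 to 58.1), beside 48.95% of all open promoters. CCGGAAG, an ETS motif, was found in 19.7% and 16.2%, GCGCATGCG of NRF1 in 6.85% and 3.97%, and TGACGTCA, the cAMP response element, in 5.83% and 3.68%, with intervals that overlap between the sides. All open promoters held them at 19.6%, 6.08% and 5.24%, in the same order.

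TATAAA was in 5.68% of upstream-only and 5.38% of downstream-only promoters, against 13.7% of all single promoters and 6.14% of the open ones. The liver motifs CAAAGTCCA (HNF4) and TTGCGCAA (C/EBP) were each in 0.291% of upstream-only and 0.283% of downstream-only promoters. Over all open promoters their shares were 0.307% and 0.435%. The E-box CACGTG was in 14.2% and 12.2%, beside 12.8% of all open promoters. A match is a run of letters, not a bound site, and motifs were counted whether or not they overlapped.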
